A study of Homo sapiens with 4 samples.

Results

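Chaperones are proteins that help other proteins reach or keep their folded shape, and this account covers the chaperone genes of the cytosol and of mitochondria in 92.1, an established cell line from a melanoma of the uvea, the pigmented layer of the eye. Poly(A)-enriched or ribosomal-RNA-depleted RNA was sequenced in 4 libraries, 2 from the resistant derivative of the line (Res) and 2 from its parental cells (Ctrl). The labels name neither the agent to which the cells are resistant nor separate cultures for the replicates, so every p-value here reflects library-to-library spread that may be technical alone. The titles name 92.1 for all 4 libraries although the cell line field gives other names for 3 of them, and the titles were followed. Members were chosen by gene symbol, with earlier results of these data known. They come from the HSP70, HSP110, HSP90, J-domain, CCT, prefoldin, BAG and HSP60/HSP10 families together with STIP1, CDC37, AHSA1, TCP1 and TRAP1. HSPA5, DNAJB9, DNAJB11, DNAJC3 and DNAJC10 of the endoplasmic reticulum and BAG3 were left out, while DNAJB12, DNAJB14 and DNAJC1 of the reticulum membrane were kept. This gave 72 genes out of 11650 with a value.

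In textbook terms the cytosolic machinery works as a relay. J-domain proteins deliver unfolded clients to HSP70, which binds and releases them with ATP. HSP110 and BAG proteins exchange its nucleotide, and STIP1 passes clients on to HSP90. Actin and tubulin instead go from prefoldin to the CCT chaperonin, a closed chamber of 8 different subunits, while mitochondria have their own HSP70, HSP60 with HSP10, and HSP90 (TRAP1). Part of the system, above all the inducible HSP70 genes HSPA1A and HSPA1B, is switched on by the heat shock factor HSF1.

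The libraries carried melanocytic transcripts, with MLANA, PMEL, TYR, TYRP1, SOX10 and MITF at 9.64 FPKM or more in each, though the melanin enzyme DCT was near 0.5 FPKM in both resistant libraries. FPKM are fragment numbers scaled for transcript length and library size, so levels can be compared between genes. They summed to 292736 and 293481 in resistant libraries and to 282602 and 283387 in parental libraries, and mitochondrially encoded transcripts took 40.2% and 40.6% of that sum against 37.2% and 37.9%. True depth is unknown. Of other lineages, 3 of 6 epithelial markers had a value (summed FPKM 9.39 and 17.7 in resistant, 3.12 and 3.91 in parental libraries), as did 3 of 6 fibroblast markers (9.59 and 7.34 against 5.20 and 6.01), 3 of 6 leukocyte markers (13.5 and 12.3 against 32.8 and 27.8) and 0 of 4 endothelial markers, with EPCAM, DCN and PTPRC without a value. Their part in the results was not tested, and in bulk RNA fewer cells of a type and less RNA per cell cannot be told apart.

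Of 71 chaperone genes tested, 47 stood lower in resistant cells and 24 higher, mostly by small amounts. Most genes leaned the same way, with 6016 of 10271 lower over all genes. No single chaperone gene passed the test over all genes. The 72 genes summed to 3639 and 4080 FPKM in resistant libraries and to 4163 and 4328 FPKM in parental libraries. As a share of FPKM from nuclear genes this was 2.08% and 2.34% against 2.35% and 2.46%. Both resistant libraries lay below both parental libraries, the closer pair by little. HSP90AA1 and HSP90AB1 alone made up 40.6% and 51.1% of the chaperone sum in resistant and 41.5% and 41.9% in parental libraries. Without that pair, the sum was 2161 and 1995 FPKM in resistant against 2435 and 2514 FPKM in parental libraries, a ratio of means of 0.840 (exact permutation p = 0.333, two-sided, the smallest that 2 against 2 libraries allow).

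Averaged over the 4 libraries, 71 chaperone genes reached 1 FPKM and entered the test, and DNAJB5 did not. In limma with Benjamini-Hochberg adjustment over 10271 genes, 0 of the 71 passed an adjusted p of 0.05, where 0.0584% of all genes did (0.0487% higher and 0.00974% lower), and the lowest adjusted p of a chaperone gene was 0.0781 (DNAJC16). At an unadjusted p under 0.05, 14 chaperone genes (19.7%) were lower in resistant cells, against 10.2% of all genes tested, and 1 (1.41%) was higher, against 6.06% of all genes. The groups did not overlap for 30 lower genes (42.3%, against 31.8% of all genes) and for 7 higher genes (9.86%, against 19.1%), 37 in all, where 51.0% of all genes had no overlap. The median log2 fold change of FPKM + 1 was -0.16 over the chaperone genes and -0.08 over all genes, and 41 of 71 lay below the all-gene median. Numbers of genes past the unadjusted limma p moved with single libraries. Leaving out a library can only add genes without overlap, so a rise in their number says nothing about single libraries. No share over all genes is given for those fits. The number lower at an unadjusted limma p under 0.05 was 27 without resistant replicate 1 (which moved the median to -0.26), 5 without parental replicate 1 and 4 without parental replicate 2, and the higher genes without overlap numbered 20, 14 and 10 in those fits and 16 without resistant replicate 2.

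**Figure D1:**
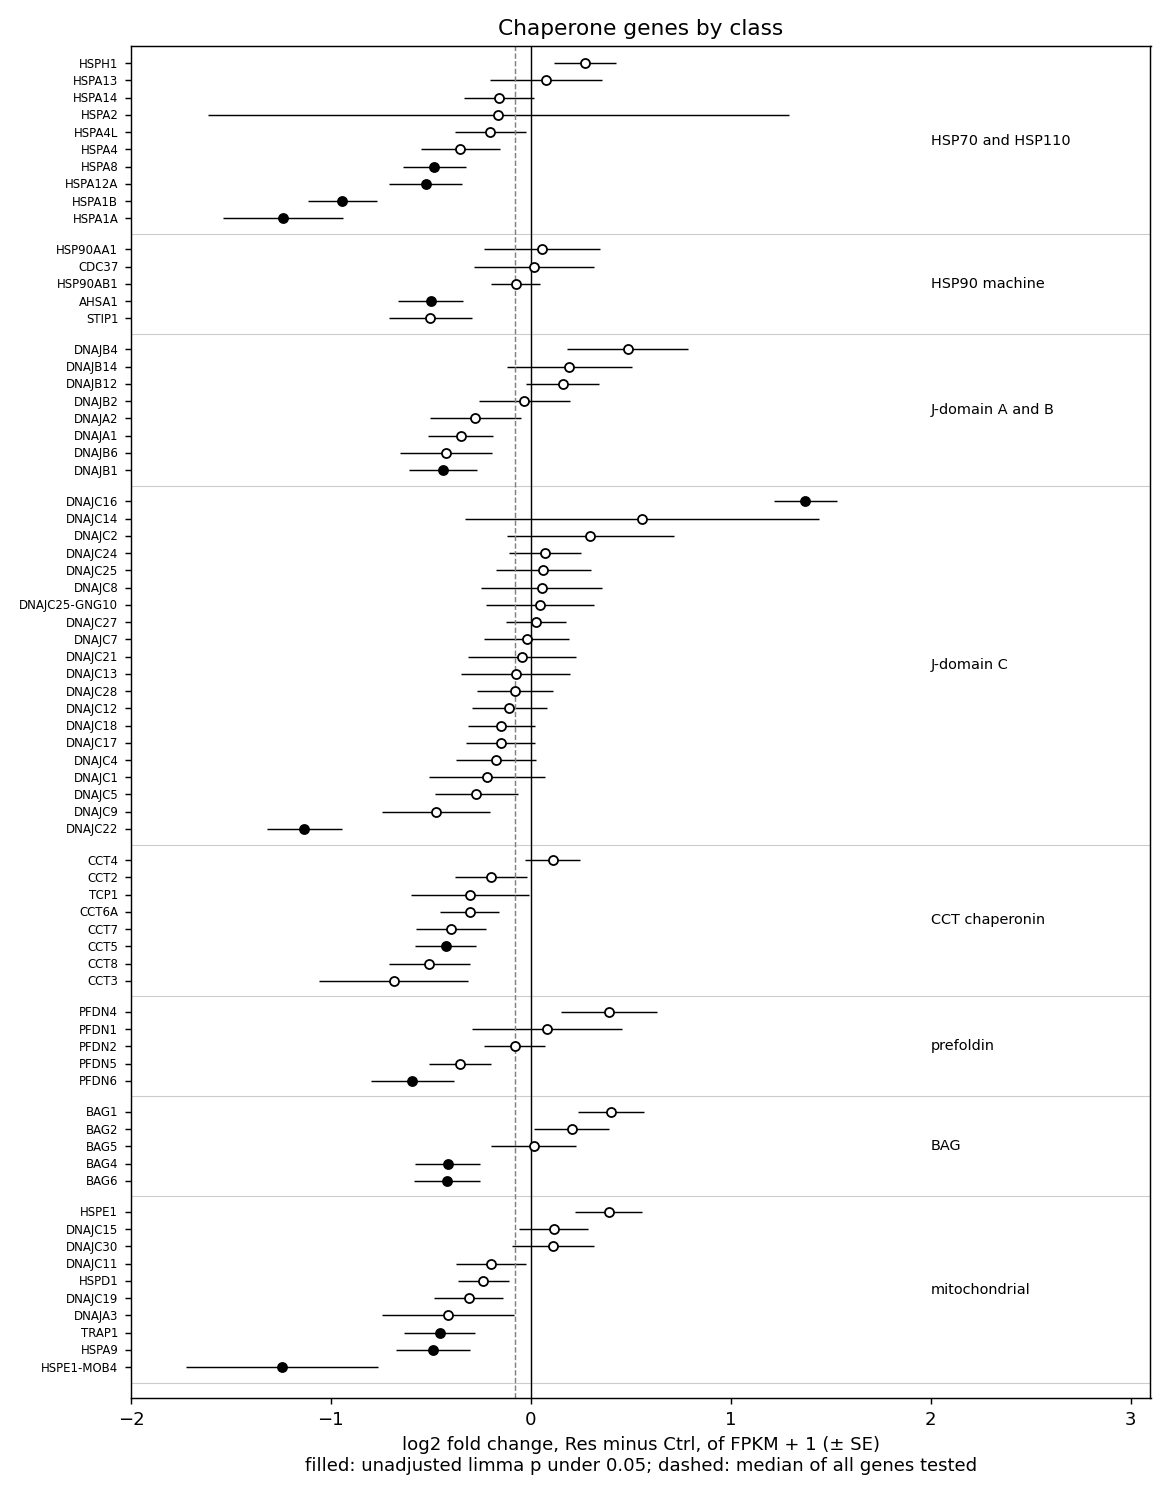
Log2 fold change (Res minus Ctrl, on FPKM + 1, ± SE from limma) of the 71 chaperone genes tested, by class and ordered within it. Filled points have an unadjusted p under 0.05 (14 lower and DNAJC16 higher), and the dashed line marks the median of all genes tested, -0.079.

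Among the HSP70 and HSP110 genes, the stress-inducible pair HSPA1A and HSPA1B had the log2 fold changes farthest from 0, although neither passed the test. HSPA1B stood at 32.0 and 30.1 FPKM in resistant libraries and at 67.3 and 54.5 FPKM in parental libraries. HSPA1A stood at 16.4 and 8.94 FPKM in resistant libraries and at 32.4 and 27.8 FPKM in parental libraries. For each gene both resistant libraries lay below both parental ones. The log2 fold change was -0.94 ± 0.17 SE for HSPA1B (limma adjusted p = 0.137) and -1.24 ± 0.30 SE for HSPA1A (limma adjusted p = 0.183). The 2 genes encode the same protein and share most of their sequence, and how reads were split between them is uncertain. Their sum was 48.3 and 39.0 FPKM in resistant against 99.7 and 82.2 FPKM in parental libraries, a ratio of means of 0.480.

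The stretches from 200 to 81 bases before the start sites of HSPA1A and HSPA1B are shown because the 2 genes were lower together (RefSeq, GRCh38.p14, plus strand, chr6:31815343-31815462 and chr6:31827538-31827657). Capitals mark GAANNTTC, a pair of the inverted GAA units that make up a heat shock element, the sequence bound by heat shock factors.
HSPA1A: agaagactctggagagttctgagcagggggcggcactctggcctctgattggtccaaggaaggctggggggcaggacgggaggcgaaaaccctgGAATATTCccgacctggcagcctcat
HSPA1B: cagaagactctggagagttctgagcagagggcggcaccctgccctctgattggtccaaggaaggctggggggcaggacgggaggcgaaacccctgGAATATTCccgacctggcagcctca
The match begins 106 bases before the start of HSPA1A and 105 bases before that of HSPA1B. Over the 2 windows of 300 bases (250 before to 50 after the start), set off by 1 base, 277 of 299 positions were identical (92.6%).

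HSPA8, the constitutive cytosolic HSP70 and the most abundant of the family, stood at 176 and 160 FPKM in resistant libraries against 213 and 259 FPKM in parental libraries. The difference was -0.48 ± 0.16 SE on the log2 scale (limma adjusted p = 0.259), with no overlap. The inducible pair amounted to 0.274 and 0.245 of HSPA8 in resistant libraries and to 0.469 and 0.318 of it in parental libraries. HSPA12A, a distant relative of HSP70, was also lower without overlap, at 3.19 and 2.89 FPKM in resistant against 4.51 and 5.14 FPKM in parental libraries (limma adjusted p = 0.276). HSPA4, an HSP110-type exchange factor, stood at 62.0 and 45.5 FPKM in resistant and 69.9 and 66.3 FPKM in parental libraries, without overlap and with a limma adjusted p of 0.428. HSPH1, the HSP110 that is also heat-inducible, went the other way without overlap, at 42.9 and 44.3 FPKM in resistant against 33.7 and 38.3 FPKM in parental libraries (0.27 ± 0.16 SE, limma adjusted p = 0.444). Over the 10 genes of this class, 8 lay below 0 and 2 above, beside 6016 of 10271 below 0 over all genes. The class median was -0.28, or -0.41 without resistant replicate 1 and -0.46 without parental replicate 1.

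HSPA2, an HSP70 best known from testis, differed between replicates more than any other chaperone gene. It stood at 2.43 and 27.9 FPKM in resistant libraries and at 2.26 and 37.2 FPKM in parental libraries, low in both libraries numbered 1 and high in both numbered 2. The groups overlapped and the fit gave -0.16 ± 1.45 SE. HSPA13, HSPA14 and HSPA4L differed by 0.08, -0.16 and -0.20 on the log2 scale (limma adjusted p of 0.600 or more).

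**Figure D2:**
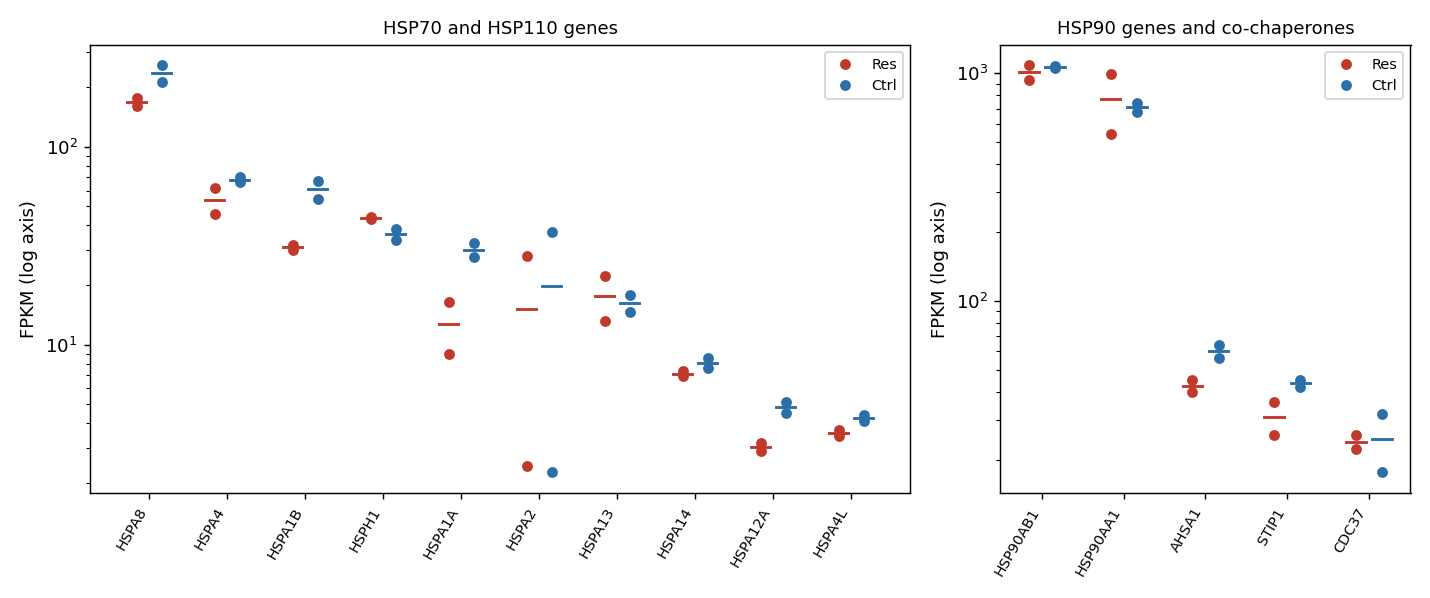
FPKM on a log axis in each library (points; bars are means of 2) for HSP70 and HSP110 genes and for the HSP90 genes with their co-chaperones. HSPA1A, HSPA1B, HSPA8 and AHSA1 lie lower in both Res libraries than in both Ctrl libraries, and HSPA2 is split between replicates in both groups.

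Both cytosolic HSP90 genes were more abundant than any other chaperone gene in each library and overlapped between the groups. HSP90AB1, the constitutive form, stood at 934 and 1089 FPKM in resistant and 1052 and 1073 FPKM in parental libraries. HSP90AA1, the inducible form, stood at 543 and 996 FPKM in resistant and 676 and 741 FPKM in parental libraries, so that the resistant replicates were on either side of the parental ones. The AA1 to AB1 ratio was 0.582 and 0.915 in resistant and 0.642 and 0.691 in parental libraries. Both genes have many processed copies in the genome, and no source used here says how the authors' counting treated these. AHSA1 and STIP1 were lower without overlap, although neither passed the test. AHSA1, which stimulates the HSP90 ATPase, stood at 44.9 and 39.6 FPKM in resistant against 64.0 and 56.5 FPKM in parental libraries (-0.50 ± 0.16 SE, limma adjusted p = 0.258). STIP1, the adaptor between HSP70 and HSP90, stood at 35.9 and 25.8 FPKM in resistant against 45.2 and 42.0 FPKM in parental libraries (-0.50 ± 0.21 SE, limma adjusted p = 0.321). CDC37, which brings kinases to HSP90, overlapped, at 25.7 and 22.4 FPKM in resistant against 31.8 and 17.7 FPKM in parental libraries. The median of the 5 genes was -0.08 (-0.075), or -0.27 without resistant replicate 2 and -0.39 without parental replicate 2. Under median-of-ratios scaling it was 0.03, beside 0.009 over all genes.

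Among J-domain proteins of types A and B, DNAJB1, the heat-inducible partner of HSP70, was lower without overlap. It stood at 23.4 and 19.7 FPKM in resistant against 30.2 and 28.7 FPKM in parental libraries (-0.44 ± 0.17 SE, limma adjusted p = 0.305). DNAJA1, the most abundant J-domain gene, stood at 136 and 109 FPKM in resistant against 151 and 161 FPKM in parental libraries (limma adjusted p = 0.357). DNAJB6, known as a suppressor of polyglutamine aggregation, stood at 6.48 and 8.27 FPKM against 11.9 and 8.73 FPKM (limma adjusted p = 0.416). DNAJB4 had the highest fold change of the class (0.48 ± 0.30 SE, limma adjusted p = 0.472) with 26.3 and 14.8 FPKM in resistant and 15.2 and 12.6 FPKM in parental libraries, which overlap. DNAJB12 and DNAJB14, both anchored in the membrane of the endoplasmic reticulum, differed by 0.16 and 0.19. DNAJB5 was listed at 0.325 and 0.216 FPKM in resistant and 0.772 and 0.640 FPKM in parental libraries and was not tested. The median of the 8 genes tested was -0.155, and it was -0.25 without resistant replicate 1, -0.001 without resistant replicate 2, -0.006 without parental replicate 1 and -0.252 without parental replicate 2.

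A complete run of 3 heat shock units, GAANNTTCNNGAA read on either strand, was found in the windows of HSPA8, DNAJA1 and DNAJB6, 3 of the 65 chaperone genes with a window in the table (4.62%), against 0.487% of 27305 promoters of the same length and 0.286% of 8390 promoters of genes tested. The pair GAANNTTC or TTCNNGAA, which every 3-unit match contains, was found in 11 of the 65 (16.9%), against 13.7% and 9.68%. The window of HSPA8 holds 2 of the 3-unit matches and the others 1 each. The DNAJA1 match lies after the start site, and the DNAJB6 match 131 to 119 bases before it. The stretches shown for HSPA8 and DNAJA1 lie inside annotated exons of these genes. For each gene 1 match (for HSPA8 the one 55 to 43 bases before the start) is shown with 8 bases on either side (RefSeq, GRCh38.p14, chr11:123062171-123062199 on the minus strand, chr9:33025268-33025296 and chr7:157336865-157336893 on the plus strand), with the motif in capitals.
HSPA8: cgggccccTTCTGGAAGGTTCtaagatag
DNAJA1: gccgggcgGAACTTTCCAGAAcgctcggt
DNAJB6: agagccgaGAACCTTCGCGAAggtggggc
These 3 genes had log2 fold changes of -0.48, -0.35 and -0.43, a median of -0.425, and their groups did not overlap, as for 42.3% of chaperone genes and 31.8% of all genes on the lower side. Of the 61 tested chaperone genes without such a match, 38 lay below 0, beside 6016 of 10271 over all genes, and the median was -0.147. Among the 61 are HSPA1A, HSPA1B, DNAJB1, HSPH1 and HSP90AA1, which are named here as inducible. The split therefore does not separate inducible from other chaperone genes. A match describes the letters in the window and is not evidence of binding.

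The J-domain proteins of type C are the most varied, recruiting HSP70 to tasks from splicing to vesicle uncoating. They had no common direction, with 12 of 20 below 0, beside 6016 of 10271 over all genes. The class median was -0.06. It was 0.03 under median-of-ratios and quantile scaling, beside 0.009 and -0.012 over all genes. DNAJC16 and DNAJC22 differed most within the class, in opposite directions and at low levels. DNAJC16, a membrane J protein, stood at 2.19 and 1.77 FPKM in resistant against 0.128 and 0.169 FPKM in parental libraries (1.37 ± 0.16 SE, limma adjusted p = 0.0781). Its parental values are under the filter, which it passed only through the resistant libraries, so it had to differ to be tested. DNAJC22, another membrane J protein, stood at 1.49 and 1.05 FPKM in resistant against 4.13 and 3.77 FPKM in parental libraries (-1.13 ± 0.19 SE, limma adjusted p = 0.122).

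Several type C genes differed between replicates, mostly between the resistant ones. DNAJC2, the ribosome-associated J protein also called zuotin, stood at 13.5 and 33.4 FPKM in resistant and 16.8 and 17.5 FPKM in parental libraries. DNAJC8, a factor linked to splicing, stood at 24.8 and 45.4 FPKM against 31.1 and 33.6 FPKM. DNAJC1, of the endoplasmic reticulum membrane, stood at 19.7 and 35.2 FPKM against 31.6 and 30.1 FPKM. For these 3 genes resistant replicate 2 was above both parental libraries and replicate 1 below both. DNAJC14 showed a split within the parental group, with 5.56 and 6.07 FPKM in resistant and 11.3 and 0.742 FPKM in parental libraries. DNAJC9, which also binds histones, stood at 11.2 and 6.54 FPKM in resistant against 12.4 and 12.3 FPKM in parental libraries (limma adjusted p = 0.438). Over the 71 genes, replicates were at least 1.5-fold apart for 19 genes in the resistant and 6 genes in the parental group, with no share over all genes given. The resistant replicates were also farther apart over all genes tested, with a pooled log2 standard deviation of 0.378 against 0.266 in the parental group. Over the 71 genes it was 0.417 in the resistant and 0.426 in the parental group. Those pooled values include HSPA2, 11.45-fold apart in the resistant and 16.46-fold in the parental group. They also include DNAJC14, 15.26-fold apart in the parental group. Leaving out resistant replicate 2 gave a class median of -0.11 and leaving out replicate 1 gave 0.13. DNAJC25 and the read-through gene DNAJC25-GNG10 share their first exons and reads, and overlapped between the groups.

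Of the 8 subunits of the CCT chaperonin, 7 had a log2 fold change below 0, beside 6016 of 10271 over all genes. The groups did not overlap for 4 lower subunits (4 of 8, against 31.8% of all genes). CCT4 was higher without overlap (1 of 8, against 19.1% of all genes). Of the 8 subunits, 0 passed the adjusted limma p. CCT5 stood at 61.2 and 52.6 FPKM in resistant against 76.9 and 76.3 FPKM in parental libraries (-0.43 ± 0.15 SE, limma adjusted p = 0.285). CCT8 stood at 72.7 and 56.8 FPKM in resistant against 81.5 and 104 FPKM in parental libraries (-0.51 ± 0.20 SE, limma adjusted p = 0.312). CCT6A and CCT7 were lower without overlap too, with log2 fold changes of -0.31 and -0.40 (limma adjusted p = 0.371 and adjusted p = 0.339). CCT4 stood at 97.4 and 94.3 FPKM in resistant against 85.9 and 91.6 FPKM in parental libraries (0.11 ± 0.14 SE, limma adjusted p = 0.724).

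The remaining subunits depended on a single resistant library. CCT3 stood at 81.8 and 37.8 FPKM in resistant and 99.5 and 81.7 FPKM in parental libraries, so that replicate 1 reached the lower parental value and replicate 2 did not. TCP1, the alpha subunit and the lowest of the 8 in every library, stood at 34.2 and 18.9 FPKM against 32.0 and 31.3 FPKM. CCT2 stood at 67.9 and 52.5 FPKM against 67.5 and 70.0 FPKM. Summed over 8 subunits, CCT amounted to 546 and 423 FPKM in resistant and 595 and 609 FPKM in parental libraries. Of the subunits, 4 were below both parental libraries in resistant replicate 1 (4 of 8, against 40.9% of all genes tested) and 7 in replicate 2 (87.5%, against 55.6%). The class median of -0.35 became -0.55 when resistant replicate 1 was left out and -0.18 when resistant replicate 2 was. The levels of the 8 subunits within a library ran from 34.2 to 97.4 FPKM and from 18.9 to 94.3 FPKM in resistant libraries, and from 32.0 to 99.5 FPKM and from 31.3 to 104 FPKM in parental libraries.

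**Figure D3:**
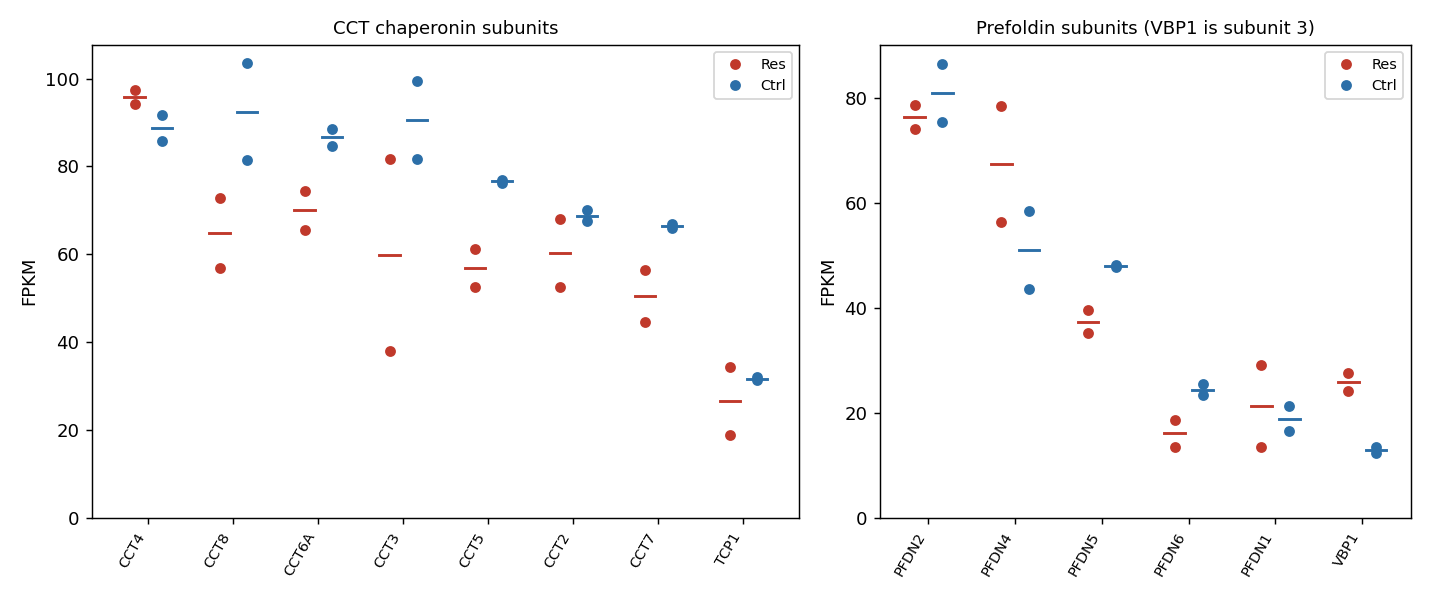
FPKM in each library (points; bars are means of 2) for the 8 CCT subunits and for prefoldin, with VBP1 (prefoldin subunit 3, from a separate list) on the right. CCT5, CCT6A, CCT7 and CCT8 are lower in both Res libraries, VBP1 is higher in both, and CCT3 and TCP1 are spread out in Res.

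Prefoldin, the hexamer that hands actin and tubulin to CCT, showed opposite differences among its subunits. PFDN6 stood at 18.6 and 13.5 FPKM in resistant against 23.4 and 25.4 FPKM in parental libraries (-0.59 ± 0.21 SE, limma adjusted p = 0.281). PFDN5 was lower without overlap as well, at 39.5 and 35.1 FPKM against 48.1 and 47.7 FPKM (limma adjusted p = 0.336). The subunit 3 gene VBP1, whose symbol lies outside the rule, was higher, at 27.6 and 24.2 FPKM in resistant against 12.3 and 13.5 FPKM in parental libraries (0.95 ± 0.17 SE, limma adjusted p = 0.133). PFDN4 leaned the same way with overlap, at 56.3 and 78.4 FPKM against 43.6 and 58.3 FPKM. PFDN2, the most abundant subunit by its mean over the libraries, overlapped at 78.5 and 74.0 FPKM against 86.4 and 75.4 FPKM, and PFDN1 stood at 29.04 and 13.5 FPKM in resistant libraries, on either side of 16.6 and 21.2 FPKM in parental libraries. With all libraries the class median was -0.08. Leaving out resistant replicate 1 moved it to -0.44, resistant replicate 2 to -0.039 and parental replicate 2 to -0.18. Under median-of-ratios scaling of all libraries it was 0.02, beside 0.009 over all genes.

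BAG proteins release clients from HSP70, and their genes were divided. BAG6, which guards hydrophobic clients, stood at 22.5 and 22.6 FPKM in resistant against 32.7 and 28.3 FPKM in parental libraries (-0.42 ± 0.16 SE, limma adjusted p = 0.306). BAG4 stood at 16.1 and 17.2 FPKM against 21.8 and 23.3 FPKM (-0.42 ± 0.16 SE, limma adjusted p = 0.305). BAG1, which also binds the survival protein BCL2, was higher without overlap, at 2.28 and 2.50 FPKM in resistant against 1.58 and 1.55 FPKM in parental libraries (0.40 ± 0.16 SE, limma adjusted p = 0.321). BAG2 was higher by a smaller amount (0.20 ± 0.19 SE) and BAG5 overlapped. The median of the 5 genes was 0.01 with all libraries, 0.24 without resistant replicate 2 and -0.21 without resistant replicate 1.

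Of the chaperone genes lower without overlap, HSPA1A, HSPA1B, BAG6 and PFDN6 share a neighbourhood on the short arm of chromosome 6, in the segment of the major histocompatibility complex (positions in GENCODE release 29 on GRCh38). HSPA1A lies from 31815464 to 31817946, HSPA1B from 31827735 to 31830255, BAG6 from 31639028 to 31652705 and PFDN6 from 33289302 to 33298401. Over the 99 genes tested between 29000000 and 34000000 on that chromosome, a span chosen after these values were seen, the median log2 fold change was -0.35 and 82 lay below 0, beside 6016 of 10271 over all genes. Over the 538 genes tested on the whole chromosome the median was -0.12. HSP90AB1, BAG2 and TCP1 are on chromosome 6 outside that span, with log2 fold changes of -0.075, 0.20 and -0.30.

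In mitochondria, the HSP70 and HSP90 forms were lower. HSPA9, the mitochondrial HSP70 called mortalin, stood at 91.3 and 68.1 FPKM in resistant against 111 and 111 FPKM in parental libraries (-0.49 ± 0.19 SE, limma adjusted p = 0.299). TRAP1, the mitochondrial HSP90, stood at 21.1 and 17.8 FPKM in resistant against 25.4 and 28.6 FPKM in parental libraries (-0.46 ± 0.18 SE, limma adjusted p = 0.305). Both were lower without overlap. None of the J proteins of the organelle passed the test. DNAJC19, of the import motor, stood at 9.02 and 7.91 FPKM against 10.6 and 10.8 FPKM (limma adjusted p = 0.431). The groups overlapped for DNAJA3 (-0.41 on the log2 scale) and for DNAJC15 and DNAJC30 (both 0.11). Over 10 genes, 7 lay below 0 and 3 above, beside 6016 of 10271 below 0 over all genes. The class median was -0.27, against -0.18 without resistant replicate 2 and -0.24 without the read-through gene.

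HSPD1 and HSPE1, which encode HSP60 and its lid HSP10, differed in opposite directions. HSPD1 stood at 207 and 218 FPKM in resistant against 244 and 257 FPKM in parental libraries (-0.24 ± 0.13 SE, limma adjusted p = 0.409). HSPE1 stood at 97.4 and 122 FPKM in resistant against 82.0 and 83.8 FPKM in parental libraries (0.39 ± 0.17 SE, limma adjusted p = 0.331). Neither pair of groups overlapped. The HSPE1 to HSPD1 ratio was 0.471 and 0.559 in resistant libraries and 0.336 and 0.326 in parental libraries, a ratio of means of 1.56 (exact permutation p = 0.333, two-sided, the smallest possible). The genes are divergent neighbours on chromosome 2, with RefSeq start sites at 197500274 on the minus strand (HSPD1) and 197500379 on the plus strand (HSPE1), 105 bases apart. HSPE1-MOB4, a read-through gene that shares exons with HSPE1, had 3.53 and 1.93 FPKM in resistant against 4.46 and 12.6 FPKM in parental libraries (limma adjusted p = 0.305). Reads of HSPE1 and of the read-through gene cannot be told apart with certainty, and the read-through gene, at 12.6 FPKM or less, is small beside HSPE1.

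**Figure D4:**
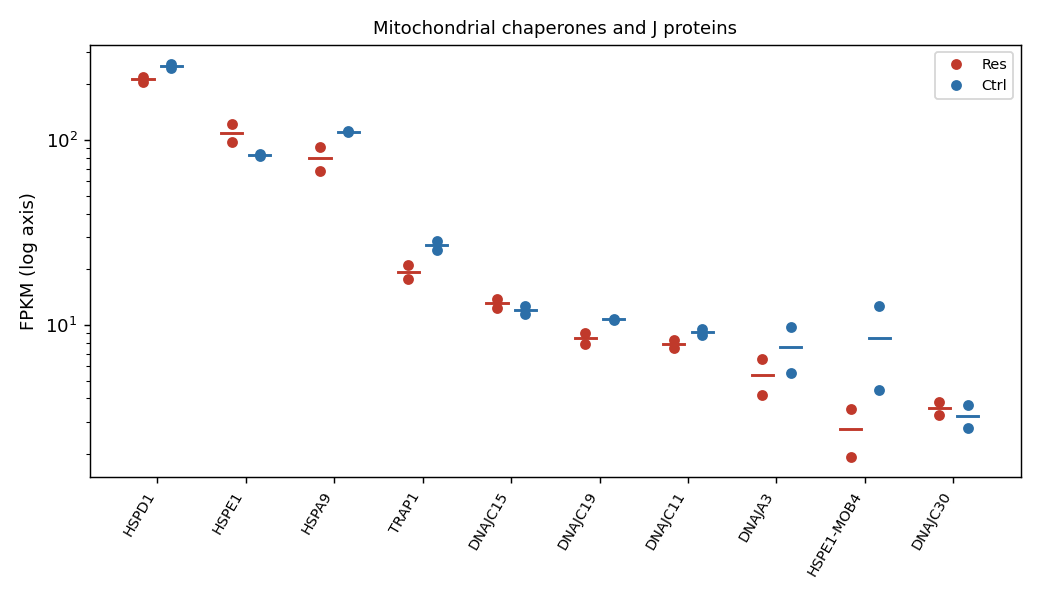
FPKM on a log axis in each library (points; bars are means of 2) for mitochondrial chaperones and J proteins. HSPA9, TRAP1 and HSPD1 are lower in both Res libraries, and HSPE1 is higher in both.

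Other folding genes were taken from 4 lists outside the rule, whose medians were -0.185 for cytosolic co-chaperones, -0.248 for mitochondrial quality control, -0.088 for heat shock factors and inducible partners, and -0.032 for partners of CCT and prefoldin, beside -0.079 over all genes. Of the factors themselves, HSF1 stood at 7.22 and 6.28 FPKM in resistant and 7.04 and 7.22 FPKM in parental libraries (-0.07 ± 0.18 SE, limma adjusted p = 0.867). Among 18 tested heat shock factors and inducible partners, 0 passed the adjusted limma p of 0.05, while an unadjusted p under 0.05 was met by 3 lower genes (16.7%, against 10.2% of all genes) and 1 higher gene (5.56%, against 6.06%). FKBP4, an HSP90-bound immunophilin of steroid receptors, stood at 25.4 and 22.3 FPKM in resistant against 40.1 and 38.9 FPKM in parental libraries (limma adjusted p = 0.170). IER5, an immediate early gene that acts on HSF1, stood at 14.2 and 12.7 FPKM against 22.5 and 19.8 FPKM (limma adjusted p = 0.215). RGS2, an inhibitor of G alpha q signalling on the same list, was the higher one, at 28.4 and 24.2 FPKM against 10.7 and 11.4 FPKM (limma adjusted p = 0.103).

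Of 29 tested cytosolic co-chaperones, 0 passed the adjusted limma p, and 6 lower genes (20.7%, against 10.2% of all genes) and 0 higher genes (against 6.06%) had an unadjusted p under 0.05. STUB1, the ubiquitin ligase CHIP that tags HSP70 and HSP90 clients, stood at 13.3 and 11.2 FPKM in resistant against 21.0 and 19.4 FPKM in parental libraries (limma adjusted p = 0.199). RUVBL2, an ATPase of the R2TP co-chaperone, stood at 22.6 and 19.6 FPKM against 33.8 and 33.0 FPKM (limma adjusted p = 0.196). PPID, another HSP90-bound immunophilin, stood at 22.7 and 12.2 FPKM against 28.6 and 31.0 FPKM (limma adjusted p = 0.300). Of 10 tested partners of CCT and prefoldin, VBP1 alone was past an unadjusted p of 0.05 (1 of 10, against 6.06% of all genes on the higher side). Of 18 tested genes of mitochondrial quality control, 11 were lower without overlap (61.1%, against 31.8% of all genes) and 4 higher (22.2%, against 19.1%). PMPCA, a subunit of the presequence peptidase, was the only one of them past an unadjusted p of 0.05 (5.56%, against 10.2% of all genes on the lower side), at 7.55 and 6.87 FPKM in resistant against 12.9 and 11.1 FPKM in parental libraries (limma adjusted p = 0.214).

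The 2 resistant libraries differed in how the classes stood. Relative to the parental mean, the class median was -0.33 and -0.41 for HSP70 and HSP110 genes in resistant replicates 1 and 2, and -0.18 and -0.33 for mitochondrial genes, both lower than the medians of all genes tested (-0.01 and -0.16). For CCT it was -0.18 and -0.55, and for prefoldin -0.04 and -0.44. BAG genes (0.24 and -0.21) and type C J-domain genes (-0.11 and 0.13) took opposite signs in the 2 libraries. For the HSP90 genes and their partners it was -0.27 and -0.08.

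**Figure D5:**
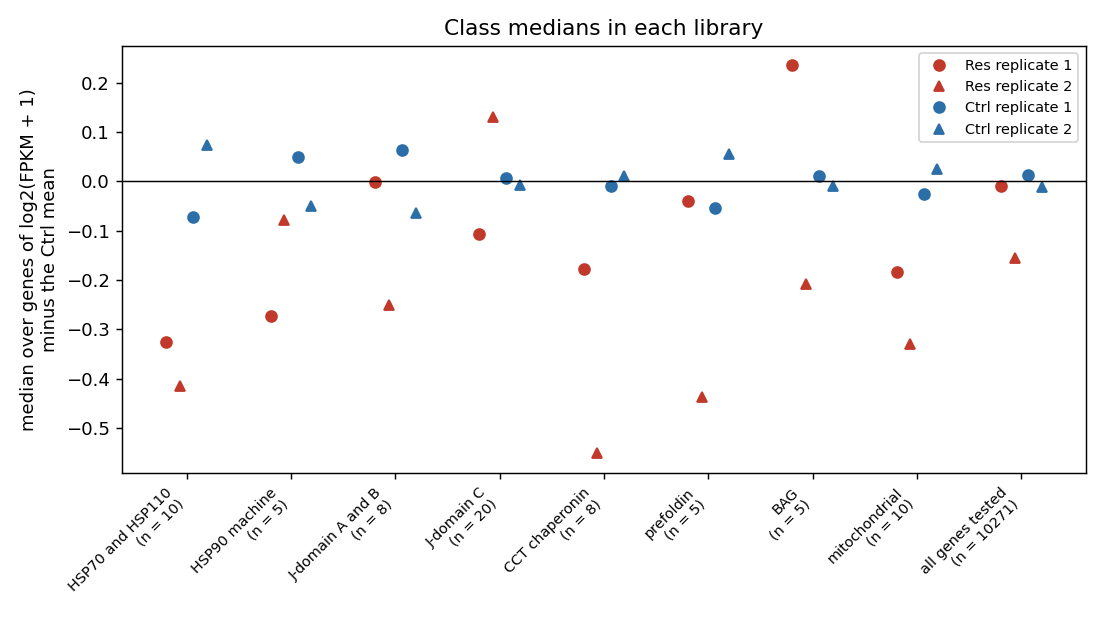
Median over the tested genes of each class of log2(FPKM + 1) minus the Ctrl mean, in each library. HSP70 and HSP110, CCT and mitochondrial medians lie below the parental ones in both Res libraries, while BAG and type C J-domain medians fall on either side of 0.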

How the data were processed

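Per the file headers, the authors deposited FPKM values, 1 per gene and library, and the submitters' processing notes name hg38. Libraries were strand-specific, per the labels' protocols. For aligner, quantifier, annotation and strand setting the sources used here give nothing. Of 11650 gene identifiers, 11575 were named from a table of current symbols and 21 from GENCODE release 29. The rule covers 84 protein-coding symbols in that release, and the 12 without a value were not analysed here. FPKM are not read counts, depth is unknown, and no count model was used.

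Values were transformed as log2(FPKM + 1), genes averaging 1 FPKM or more were kept, and resistant libraries were compared with parental ones in limma 3.58.1 (R 4.3.3) as a two-sided test using the variance trend, p-values of all 10271 genes being adjusted by Benjamini-Hochberg. Fold changes on this scale understate changes of low genes. On simulated data with 200 changed genes, the fit recovered 95.3% of 2-fold and 100% of 4-fold changes, and 7.18% of its calls were false. The simulation drew normal noise with a smoothed spread. It held no replicate splits like that of HSPA2, so it does not show how the fit performs on these libraries. Python 3.11.15 served for tables and figures. Members, classes and lists were chosen with earlier results of these data known. Named genes are members at an unadjusted p under 0.05 without overlap, the 3 most abundant of each class, up to 3 such genes of each other list, and 8 fixed genes. Other members were named after their values were seen. Alternatives covered the pseudocount, the filter, scaling, the variance trend, a replicate block and leaving out each library, and leaving out the read-through genes was added after seeing the data.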

Additional observations from a re-analysis of the deposited data

How the results depend on the processing

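No chaperone gene passed the adjusted threshold under the alternatives that kept all libraries. Over the 12 alternatives, 381 of 393 values of the 33 named genes kept their direction. The filter settings, the variance trend and the replicate block leave a gene's fold change as it was, so those values could not turn. All that turned came from scaling or from leaving out a library. With a pseudocount of 0.1, median-of-ratios scaling or quantile normalization, limma called 3 genes higher over all genes, and 3 lower after rescaling to a common sum. Chaperone genes lower at an unadjusted limma p under 0.05 numbered 6 with median-of-ratios scaling and 8 without the variance trend. The higher ones numbered 0 at a minimum mean of 5 FPKM, 2 under median-of-ratios scaling and 3 after quantile normalization, which left 11 higher without overlap. Shares over all genes are not given for these fits, so the counts cannot be read as particular to chaperone genes. Class medians were -0.31 for A and B J-domain genes at the minimum of 5 FPKM and -0.28 for the HSP90 machine with quantile normalization. With median-of-ratios scaling they were -0.18 for HSP70 and HSP110, -0.17 (-0.175) for mitochondrial and -0.085 for the chaperone genes together. The chaperone genes together stood at -0.24 once libraries were rescaled to a common sum. All-gene medians moved too, from -0.079 in the main fit to 0.009 under median-of-ratios scaling and -0.138 under the common sum. The chaperone median thus stayed below that of all genes in both. Median-of-ratios scaling turned HSP90AB1 (0.029), PFDN2 (0.022) and HSF1 (0.019), and quantile normalization turned HSF1 (0.015). The cause was not tested.

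Leaving out 1 library turned HSP90AB1 (0.035) and DNAJC1 (0.18) without resistant replicate 1, HSP90AA1 (-0.38), DNAJC8 (-0.37), DNAJC2 (-0.33) and HSF1 (0.017) without resistant replicate 2, and HSP90AA1 (-0.01) and PFDN2 (0.016) without parental replicate 1. Over the 4 fits HSP90AB1 ran from -0.186 to 0.035, HSP90AA1 from -0.380 to 0.492, DNAJC8 from -0.369 to 0.478, DNAJC1 from -0.621 to 0.183, DNAJC2 from -0.327 to 0.924, HSF1 from -0.159 to 0.017. Over these fits limma called 0 to 19 genes higher and 0 to 13 lower, and the chaperone genes at an unadjusted p under 0.05 numbered 1 to 6 higher and 4 to 27 lower, with 10 to 20 higher and 34 to 45 lower without overlap. Medians ran from -0.46 to -0.25 for HSP70 and HSP110, -0.39 to -0.08 (-0.079) for the HSP90 machine, -0.25 to -0.001 for A and B J-domain genes, -0.11 to 0.13 for type C, -0.55 to -0.18 for CCT, -0.44 to -0.039 for prefoldin, -0.21 to 0.24 (0.235) for BAG, -0.33 to -0.18 for mitochondrial and -0.26 to -0.14 for the chaperone genes together. Over all genes tested the median ran from -0.156 to -0.01 in the same fits. With the replicate number as a block, 9 chaperone genes were lower at an unadjusted limma p under 0.05, with no share over all genes given. The numbers are not stated to pair the libraries, and deviations of same-numbered libraries correlated at -0.071 over all genes, at 0.425 over the 71 chaperone genes and at -0.053 over the 70 without HSPA2. Depth is unknown and 2 libraries a group limit the precision.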

Other observations

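Among folding genes outside the chaperone rule, SERPINH1, the collagen chaperone HSP47 of the endoplasmic reticulum, stood at 17.0 and 12.9 FPKM in resistant against 21.9 and 23.3 FPKM in parental libraries (limma adjusted p = 0.274). RUVBL1, the partner of RUVBL2, stood at 7.997 and 7.33 FPKM against 12.2 and 11.4 FPKM (limma adjusted p = 0.240). NUDC, a co-chaperone of HSP90, stood at 42.4 and 39.8 FPKM against 56.0 and 56.9 FPKM (limma adjusted p = 0.261). None of these groups overlapped. The small heat shock protein gene HSPB1 did overlap, at 322 and 381 FPKM in resistant and 323 and 336 FPKM in parental libraries. BAG3, the stress-inducible BAG gene left out by the rule, stood at 12.6 and 7.30 FPKM in resistant against 17.5 and 15.2 FPKM in parental libraries (limma adjusted p = 0.308), and HSPA5, the HSP70 of the endoplasmic reticulum, at 161 and 123 FPKM against 173 and 176 FPKM (limma adjusted p = 0.429). These genes beyond the listed rule were named after their values were seen.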
